A study of Mus musculus with 28 samples.

Results

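Naive mouse CD4+ T cells that had lost Tgfbr1 (KO), the gene of TGF-β receptor I, were compared with cells that kept it (WT) by RNA-seq, with all cultures of a genotype pooled. The 12 libraries headed KO were set against the 12 headed WT, out of 28 libraries in the series, of which the other 4 measured DNase I hypersensitivity. Of 24089 genes in the table, 9726 had a mean of 1 RPKM or more (reads per kilobase of gene, scaled to the mapped reads of the library, a level per length that can be compared between genes) and were examined, and 14363 lay under that level. Genes were picked out for description where their 12 KO values lay all below or all above the 12 WT values. There were 157 such genes with KO lower, which is 1.61% of those examined, and 199 with KO higher, which is 2.05%. In either direction that makes 356 genes, or 3.66%.

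Every mouse carried Tgfbr1 f/f alleles and the tamoxifen-inducible ER-cre (Ert2-cre) transgene, WT mice having been given oil and KO mice tamoxifen, so that loss of Tgfbr1 and exposure to tamoxifen cannot be told apart. The headings name 3 mice of each genotype and 4 cultures of each mouse, all with antibodies to CD3 and CD28, either without added cytokine (control) or with IL-4, TGF-β or both cytokines. Columns of 1 mouse are not independent, and each culture was represented by 3 columns of each genotype. The sources used here do not say whether KO and WT libraries were sequenced in the same run.

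Before any result, the headings were checked on 8 WT libraries for which the study lists read counts, by which genes stood at 0. Each library met 1 column in which at least 99.8% of the compared genes were at 0 or above 0 alike, against at most 85.3% in the next best column. For 6 of the 8 that column was headed as another library, and for 4 of the 8 it was headed with another mouse number. All 8 columns were headed WT, so the genotype of these columns stood. The culture and mouse in the headings could not be relied on, and the matched library gives them for these 8 columns alone. For that reason no culture is described by itself here. By these matches, the mean of each headed WT mouse mixed columns of different mice. Below, a numbered mouse means the columns so headed, and leaving out a headed WT mouse does not leave out a single animal. No KO column and none of the other WT columns was checked, so their genotype, culture and mouse rest on the headings alone. Columns of 1 headed mouse did not vary alike around the group means. With the headed mouse as a random effect, the correlation estimated within mice was -0.16. Separately, deviations from the mean of the headed genotype and culture were correlated across genes, and pairs of WT mouse 2 ranged from -0.81 to 0.79. Means of headed mice thus hide much of the spread between columns, and the SE and p-values below are smaller than that spread gives. The column headed KO IL-4, mouse 2, stood apart from the other KO columns in interferon-stimulated genes. Their summed level was 591 RPKM there and at most 426 RPKM in the other KO columns. Its sum of macrophage, monocyte and dendritic cell markers (184 RPKM) lay under the highest KO sum (200 RPKM). Values that this column moved are given beside the genes concerned. Relative sequencing depth, read from the spacing of low values, ran from 0.794 to 1.40 in KO columns and from 0.826 to 1.66 in WT columns.

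TGF-β binds a pair of receptors, and TGF-β receptor I then phosphorylates Smad2 and Smad3, which enter the nucleus with Smad4 and change transcription. In CD4+ T cells the pathway takes part in forming regulatory T cells (with Foxp3) and, with other cytokines, IL-17-producing (Th17) and IL-9-producing (Th9) cells, and it restrains activation and Th1 cells. Ski, Skil, Pmepa1, Ldlrad4 and Smad7 are known feedback inhibitors that Smads themselves induce.

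Tgfbr1 itself (mm9 chr4:47366094-47427803) measured 2.32 to 5.18 RPKM in KO columns (median 3.11) and 3.02 to 20.7 RPKM in WT columns (median 8.91). Its log2 difference of KO minus WT, on the log2(RPKM + 1) scale used throughout, was -1.11 ± 0.044 (± SE, n = 3 mice a genotype as headed), with an adjusted p of 9.8e-08 from limma on mouse means with Benjamini-Hochberg adjustment over all 9726 genes. The groups nevertheless overlapped. Of the 12 KO columns 5 lay below every WT column, and the highest KO value belonged to the column KO IL-4 2. In WT the gene fell in 2 ranges, with 6 columns at 3.02 to 3.94 RPKM and 6 at 13.9 to 20.7 RPKM, and each headed WT mouse averaged 2 columns of each range. Among the WT columns matched to a library above, those in the upper range matched libraries labelled TGF-β, alone or with IL-4. Those in the lower range matched libraries labelled control or IL-4. How far added TGF-β accounts for the spread in WT, or for the difference from KO, was not tested. With the 24 columns entered separately the SE was 0.29 and the adjusted p 0.0033. The RPKM covers the whole gene, so reads from exons outside the floxed part count in KO cells too.

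Across the table, limma called a gene changed where the adjusted p was under 0.01 and the fold was over 1.5. By that rule 387 genes were lower in KO (3.98%) and 117 were higher (1.2%). These shares, with 1.61% lower and 2.05% higher for genes without overlap, are the background for the list counts below. An unadjusted p under 0.05 from limma was common, in 6076 genes or 62.5% of those examined, so counts at that p say little by themselves. Of the 157 genes with KO lower and no overlap, 93 were also called, and of the 199 with KO higher, 35 were. Both counts come from the same columns as the rule, so they describe the members and add no support. Conversely, 294 genes called lower and 82 called higher still had overlapping columns. Members that were lower moved further than members that were higher. The median log2 difference was -0.67 in the former (range -3.43 to -0.092) and 0.31 in the latter (range 0.11 to 1.75), against 0.017 over all genes examined. A log2 difference of -1 or less was seen for 45 members, and one of 1 or more for 8. With a median of 31.0 RPKM, the higher members were more abundant than the lower members (10.6 RPKM) and than all genes (11.9 RPKM).

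**Figure D1:**
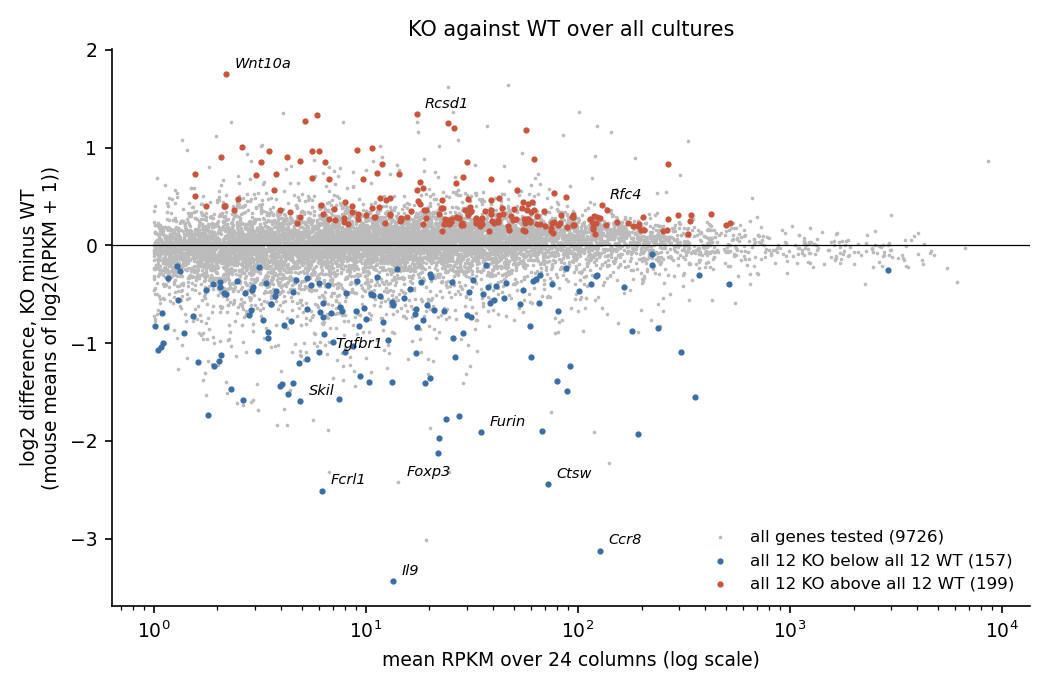
Log2 difference of KO minus WT (vertical axis, log2(RPKM + 1) scale) against the mean RPKM over 24 columns (horizontal axis, log scale) for all 9726 genes examined, each point a gene. Blue points are the 157 genes with every KO column below every WT column and red points the 199 with every KO column above every WT column. Blue points reach -3.43 while red points reach 1.75, and many red points lie close to 0 among abundant genes.

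At the edge of the rule, 2900097C17Rik just qualified as lower, with a highest KO value of 19.5176 RPKM and a lowest WT value of 19.524 RPKM, while B230219D22Rik just missed (6.66685 RPKM in the highest KO column and 6.665 RPKM in the lowest WT column). On the higher side Asf1b just qualified (lowest KO 60.7921 RPKM, highest WT 60.7786 RPKM) and Mettl3 just missed (16.5896 and 16.5898 RPKM). Small shifts were enough where columns varied little. Snx3, a sorting nexin, had the smallest decrease among members (208 to 221 RPKM in KO columns, median 217, and 223 to 239 RPKM in WT columns, median 232), and Eif3l, a translation initiation factor subunit, had the smallest increase (335 to 358 RPKM in KO columns, median 343, and 303 to 332 RPKM in WT columns, median 319.8). WT columns spread more than KO columns in most members. The SD of log2 values was larger in WT for 77.1% of lower members and 75.9% of higher members, against 61.6% of all genes.

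Cells other than CD4+ T cells could add RNA to these bulk libraries, in which fewer cells of a type and less RNA per cell cannot be told apart. Of 10 T cell markers none was called by limma, with 3 lower and 4 higher at an unadjusted p under 0.05. Cd4 measured 93.2 to 122 RPKM in KO columns (median 107) and 75.6 to 98.3 RPKM in WT columns (median 81.2), a log2 difference of 0.35 ± 0.02. Thy1 was a member on the higher side (0.38 ± 0.031), whereas Cd2 (-0.53 ± 0.03), Lck (-0.35 ± 0.033) and Cd3e (-0.17 ± 0.026) lay below 0. Of 13 macrophage, monocyte and dendritic cell markers with a value, 6 were examined, and 5 of them were called lower (3.98% of all genes were), with a summed level over the list of 83.2 to 200.2 RPKM in KO (median 100.4) and 162 to 446 RPKM in WT (median 229). Most of that sum came from the class II genes Cd74, H2-Ab1 and H2-Aa, while 7 markers lay under the level examined, and the defining genes Csf1r, Itgam, Cd14 and Emr1 reached at most 0.205 RPKM in any KO column and 0.746 RPKM in any WT column. Fcer1g (-1.10 ± 0.056) and Lyz2 (-1.12 ± 0.15) were among the 5. Of 9 neutrophil and mast cell markers 4 were examined and 2 were called lower, S100a8 (0 to 12.5 RPKM in KO columns, median 3.07, and 3.2 to 79.3 RPKM in WT columns, median 30.3) and S100a9 (-2.32 ± 0.12), with sums of 4.91 to 25.7 RPKM in KO and 9.37 to 121 RPKM in WT. Of 9 B and plasma cell markers 6 were examined and Cd79a and Igj were called lower (Igj no longer without any 1 of 4 mice, WT 1, WT 3, KO 1 or KO 2, at -0.50 to -0.58), with overlapping sums of 13.8 to 44.2 RPKM in KO and 18.4 to 51.2 RPKM in WT. The highest KO sums of these last 2 lists came from the column KO IL-4 2 and were 21.4 and 33.8 RPKM without it. Csf3r (-0.44 ± 0.058), Elane (-0.59 ± 0.17) and Ms4a1 (-0.26 ± 0.093) were not called. None of these myeloid, mast and B cell markers was free of overlap between genotypes, and their part in the results below was not tested. Erythroid and platelet markers gave 1 call higher (Pf4) among 2 examined of 8, and stromal markers gave none among 2 of 8 by limma, with both, Pecam1 (0.51 ± 0.069) and Epcam (0.12 ± 0.039), higher at an unadjusted p under 0.05. The other erythroid marker, Hba-a1, was listed at 0 in every KO column and reached 21.9 RPKM in WT. NK cell markers gave 1 call lower (Tyrobp, -0.91 ± 0.049) and 1 higher (Eomes) among 4 of 7, with Klrk1 (-0.32 ± 0.066) and Ncr1 (0.23 ± 0.06) not called.

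Components and feedback inhibitors of the TGF-β pathway were called lower in KO or were not called, and none was called higher. Of 36 genes of receptors, ligands, Smads and regulators, 20 were examined and 8 were called lower (3.98% of all genes were), with a median log2 difference of -0.44. At an unadjusted p under 0.05, 14 were lower and 1 was higher. Without the filter on low levels 9 of the 36 were called lower and none higher. Of the 20, 4 had no overlap, all lower (1.61% of all genes were such): Furin, Skil, Pmepa1 and Ldlrad4. Furin, the convertase that cleaves the TGF-β1 precursor, measured 9.06 to 18.9 RPKM in KO columns (median 13.7) and 35.2 to 84.7 RPKM in WT columns (median 56.6), a log2 difference of -1.91 ± 0.04. Skil, which binds and represses Smad complexes, measured 1.55 to 2.34 RPKM in KO columns (median 1.79) and 3.92 to 12.2 RPKM in WT columns (median 7.84), a difference of -1.59 ± 0.052 with an adjusted p of 2.6e-08. Every KO column of either gene was below the lowest WT column by a wide margin.

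Pmepa1, a membrane protein that keeps Smads from the receptor, measured 0.541 to 0.983 RPKM in KO columns (median 0.7) and 2.25 to 7.57 RPKM in WT columns (median 4.17), a log2 difference of -1.58 ± 0.05. Ldlrad4, related to Pmepa1 and acting likewise, measured 0.269 to 0.688 RPKM in KO columns (median 0.453) and 0.738 to 8.49 RPKM in WT columns (median 3.73), a difference of -1.46 ± 0.042. No KO column of either gene reached the lowest WT column. Ski, the paralog of Skil, was called lower too (-1.01 ± 0.045) but overlapped, as did the ligand gene Tgfb1 (-0.61 ± 0.055) and Lrrc32, which presents latent TGF-β on the cell surface (-0.98 ± 0.045). The signal carriers moved less. Smad2 measured 6.65 to 8.22 RPKM in KO columns (median 7.15) and 5.91 to 7.83 RPKM in WT columns (median 6.68). Smad4 measured 1.23 to 2.13 RPKM in KO columns (median 1.45) and 1.13 to 1.9 RPKM in WT columns (median 1.52). Neither had an adjusted p under 0.01. Smad3 had a log2 difference of -0.54 ± 0.042 and the partner receptor Tgfbr2 one of -0.54 ± 0.04, each with an adjusted p under 0.01 but a fold under 1.5.

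Genes known to be induced by TGF-β in T cells were lower in every case examined. All 13 that passed the filter of 20 listed were called lower (3.98% of all genes were), with a median log2 difference of -1.51, but such genes can pass the filter through their WT level alone. Without the filter 16 of the 20 were called lower and none higher. Of the 13, 5 had no overlap (Il9, Skil, Pmepa1, Ldlrad4 and Ikzf4), all lower, against 1.61% of all genes. Ikzf4, the transcription factor Eos of regulatory T cells, measured 1.31 to 2.25 RPKM in KO columns (median 1.78) and 2.71 to 13 RPKM in WT columns (median 6.97), a log2 difference of -1.41 ± 0.041.

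Foxp3, the regulatory T cell factor, measured 0.542 to 4.76 RPKM in KO columns (median 1.47) and 1.85 to 73.4 RPKM in WT columns (median 18.8), a log2 difference of -2.42 ± 0.044 with an adjusted p of 1.7e-09. It was no member because 4 KO columns reached into the WT range, while the other 8 lay under the whole WT range. Nt5e, the ectoenzyme CD73, measured 0.361 to 2.31 RPKM in KO columns (median 0.868) and 0.717 to 21.2 RPKM in WT columns (median 9.78), a log2 difference of -1.79 ± 0.049. Itgae, the integrin CD103, measured 0.0307 to 0.358 RPKM in KO columns (median 0.147) and 0.196 to 8.76 RPKM in WT columns (median 2.21), a log2 difference of -1.38 ± 0.052. Xcl1, a chemokine, was an abundant member of the list (112 to 274 RPKM in KO columns, median 168, and 256 to 386 RPKM in WT columns, median 309) with a smaller difference of -0.83 ± 0.024. For Foxp3, Nt5e and Itgae the WT columns spread much more than the KO columns. For Foxp3 and Nt5e the higher WT columns were the same ones as for Tgfbr1.

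Il9, the cytokine that defines Th9 cells, had the largest decrease of all members. It measured 0.25 to 2.72 RPKM in KO columns (median 0.914) and 8.15 to 45.9 RPKM in WT columns (median 25.5), a log2 difference of -3.43 ± 0.074 with an adjusted p of 2.6e-09, or 10.8-fold lower on the log2(RPKM + 1) scale. Every WT column lay far above the highest KO column, and WT levels themselves varied widely. The gene lies on mm9 chr13:56580638-56583607, minus strand. To show the DNA in front of the genes with the largest change in each direction and of a feedback inhibitor, the 250 bases before the annotated start are given 5′ to 3′ from the mm9 sequence, with capitals for matches to CAGAC (the short Smad element), GTCTAGAC (the palindromic Smad element) or TGANTCA (the AP-1 element) on either strand:
Il9 promoter, chr13:56583608-56583857, minus strand: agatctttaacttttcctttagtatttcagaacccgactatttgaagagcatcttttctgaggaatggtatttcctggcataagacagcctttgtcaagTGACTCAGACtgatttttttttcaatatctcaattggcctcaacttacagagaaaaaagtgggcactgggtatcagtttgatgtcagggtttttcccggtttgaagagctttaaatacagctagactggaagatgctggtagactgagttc
Ccr8 promoter, chr9:120001001-120001250, plus strand: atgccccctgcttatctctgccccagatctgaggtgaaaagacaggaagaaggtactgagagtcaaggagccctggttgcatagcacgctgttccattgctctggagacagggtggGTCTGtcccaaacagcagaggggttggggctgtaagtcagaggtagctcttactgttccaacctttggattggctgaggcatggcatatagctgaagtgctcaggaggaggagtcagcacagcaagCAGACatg
Skil promoter, chr3:30993730-30993979, plus strand: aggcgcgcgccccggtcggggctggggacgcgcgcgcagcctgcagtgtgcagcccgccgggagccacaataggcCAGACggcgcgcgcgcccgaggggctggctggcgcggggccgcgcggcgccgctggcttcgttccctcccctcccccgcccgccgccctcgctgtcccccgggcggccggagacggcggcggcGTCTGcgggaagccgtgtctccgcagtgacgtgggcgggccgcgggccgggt
Wnt10a promoter, chr1:74837840-74838089, plus strand: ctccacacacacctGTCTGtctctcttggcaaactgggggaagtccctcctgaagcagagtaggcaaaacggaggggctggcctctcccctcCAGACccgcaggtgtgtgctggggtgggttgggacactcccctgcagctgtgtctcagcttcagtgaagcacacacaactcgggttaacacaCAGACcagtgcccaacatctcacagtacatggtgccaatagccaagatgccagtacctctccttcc

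The Il9 window holds 1 CAGAC that overlaps 1 TGANTCA, the Ccr8 window 2 CAGAC, the Skil window 2 CAGAC in 82% G and C, and the Wnt10a window 3 CAGAC, so the element stood in front of genes that moved in opposite directions. CAGAC was found in 43.0% of the windows of lower members (64 of 149 with a position), 34.6% of higher members (65 of 188) and 40.3% of all genes examined (3645 of 9049). TGANTCA was found in 4.70%, 1.60% and 3.97%, and GTCTAGAC in 0 of 149 and 1 of 188, against 0.199% of all. These matches are letters in a window and say nothing on binding.

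Of 16 genes of the Th9 list 15 were examined, and 7 were called lower and 1 higher (3.98% and 1.2% of all genes were), with a median log2 difference of -0.50. Il9 was the only one without overlap. Spi1, the gene of the Th9 factor PU.1, measured 0.618 to 1.85 RPKM in KO columns (median 0.978) and 1.45 to 4.55 RPKM in WT columns (median 2.34), a log2 difference of -0.79 ± 0.069, and PU.1 is also a factor of myeloid and B cells, whose markers are given above. Batf3 was lower (-0.77 ± 0.051, adjusted p 0.062 with the 24 columns entered separately), as were Stat5a (-0.70 ± 0.034) and Stat5b (-0.76 ± 0.034), which carry IL-2 signals, and Tnfrsf4, the costimulator OX40 (-0.59 ± 0.025). Stat3 (-0.59 ± 0.038), which belongs to the Th17 list and not to this one, was lower as well. Id3, a repressor of E proteins, was higher (38.3 to 115 RPKM in KO columns, median 70.8, and 19.6 to 61.3 RPKM in WT columns, median 33.9, log2 difference 0.95 ± 0.029). Irf4 and Irf8, factors that bind the Il9 gene, had differences of -0.36 and -0.50, under the fold required. Dbp, a clock-related bZIP factor, measured 2.33 to 3.79 RPKM in KO columns (median 2.66) and 2.14 to 9.72 RPKM in WT columns (median 4.2), a difference of -0.50 ± 0.056 that was not called (called at -0.59 with a pseudocount of 0.1).

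Ccr8 and its ligand Ccl1 fell together. Ccr8, a chemokine receptor of Th2 and regulatory T cells, measured 6.14 to 42.6 RPKM in KO columns (median 23.4) and 50.9 to 381 RPKM in WT columns (median 250.5), a log2 difference of -3.12 ± 0.027 with an adjusted p of 1.2e-11. Ccl1 measured 21.4 to 34.7 RPKM in KO columns (median 26) and 66.6 to 159.6 RPKM in WT columns (median 98.4), a difference of -1.90 ± 0.089. Neither gene had overlapping columns, and Ccr8 was among the most abundant of the large decreases in WT cells. Ccr8 was in the Th2 list, of which 7 of 16 were examined and 2 were called lower (3.98% of all genes were), the other being the receptor gene Ccr4 (-1.09 ± 0.03). Il4 (-0.52) and Gata3 (-0.14), the cytokine and the master factor of Th2 cells, and the repressor gene Gfi1 (0.39) were not called, though Il4 was with a pseudocount of 0.1 (-1.01) and without WT mouse 1 (-0.62), and the list median was -0.14.

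**Figure D2:**
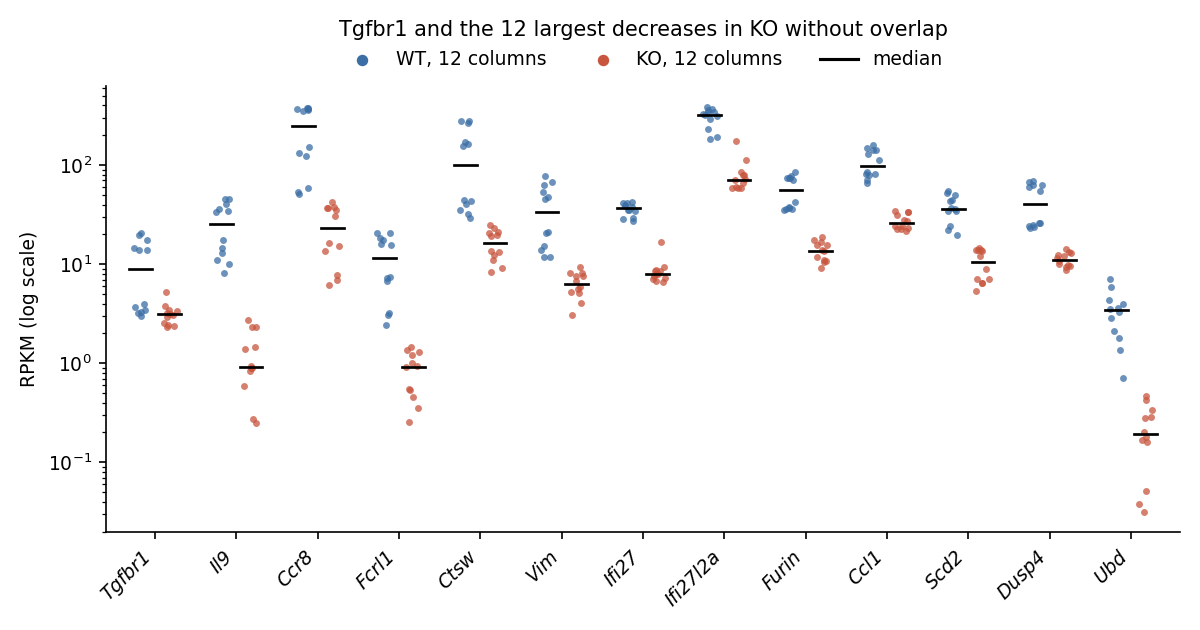
RPKM (log axis) of Tgfbr1 and of the 12 members with the largest decreases, each point 1 of 12 WT (blue) or 12 KO (red) columns and each black bar the median of its group. The groups are apart for all 12 members, from Il9 with a KO median of 0.914 and a WT median of 25.5 RPKM to Ubd with 0.192 and 3.42 RPKM, and overlap for Tgfbr1.

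Th17 genes were lower as a group. Of 14 genes 9 were examined, and 8 were called lower and none higher (3.98% and 1.2% of all genes were), with a median log2 difference of -1.04. Without the filter 10 of 14 were called lower. The chemokine receptor gene Ccr6 (-1.83 ± 0.052), its ligand gene Ccl20 (-1.68 ± 0.068) and the cytokine gene Il17f (-1.51 ± 0.055) were lower with overlap. Ahr, the aryl hydrocarbon receptor, was the only one of the 9 without overlap, and its KO columns all stayed below 1 RPKM (0.163 to 0.415 RPKM in KO columns, median 0.274, and 0.572 to 3.69 RPKM in WT columns, median 1.77, log2 difference -1.04 ± 0.042). Il6ra, which receives IL-6, had a difference of -1.04 ± 0.05.

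Th1 and cytotoxic genes went both ways. Of 25 genes 19 were examined, 6 were called lower and 3 higher (3.98% and 1.2% of all genes were), with a median log2 difference of -0.25. Nkg7, a cytotoxic granule protein, measured 38.9 to 57.9 RPKM in KO columns (median 42.4) and 97.6 to 145 RPKM in WT columns (median 109), a log2 difference of -1.39 ± 0.027. Runx3, a factor of CD8+ and Th1 cells, measured 3.79 to 5.66 RPKM in KO columns (median 4.39) and 6.38 to 9.2 RPKM in WT columns (median 7.72), a log2 difference of -0.68 ± 0.039. Both had no overlap. Ifng, the Th1 cytokine, was lower with overlap (9.01 to 28.6 RPKM in KO columns, median 19.2, and 13.6 to 97.7 RPKM in WT columns, median 45.6, log2 difference -1.08 ± 0.074), and so was Il12rb2 (-0.91 ± 0.044). Stat4, which carries IL-12 signals, was higher with overlap (25.3 to 32.8 RPKM in KO columns, median 28.3, and 4.5 to 27.9 RPKM in WT columns, median 16.5, log2 difference 1.01 ± 0.039), as were Eomes (0.67 ± 0.054) and Fasl (0.64 ± 0.046). The Th1 master factor Tbx21 (-0.37) and the granule genes Gzmb (0.36) and Prf1 (0.26) were not called.

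Ctsw, cathepsin W, a protease of cytotoxic lymphocytes, was among the largest decreases (8.34 to 25 RPKM in KO columns, median 16.5, and 29 to 282 RPKM in WT columns, median 100.03, log2 difference -2.44 ± 0.032). The subunits of CD8 parted. Cd8a measured 1.14 to 3.85 RPKM in KO columns (median 1.5) and 5.04 to 8.87 RPKM in WT columns (median 5.87), a difference of -1.42 ± 0.051 without overlap, and the highest KO value again came from the column KO IL-4 2. Cd8b1 measured 12.8 to 25.1 RPKM in KO columns (median 19.9) and 11 to 30.4 RPKM in WT columns (median 18.9), a difference of 0.0023 ± 0.034. Fcrl1, an Fc receptor-like protein known from B cells, measured 0.254 to 1.47 RPKM in KO columns (median 0.926) and 2.44 to 20.6 RPKM in WT columns (median 11.5), a log2 difference of -2.51 ± 0.05, next to B cell marker sums that overlapped between genotypes.

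Vim, the intermediate filament vimentin, measured 3.08 to 9.44 RPKM in KO columns (median 6.32) and 11.7 to 77.7 RPKM in WT columns (median 33.6), a log2 difference of -2.12 ± 0.042. The actin-capping protein gene Capg measured 128 to 170.3 RPKM in KO columns (median 143) and 174 to 972 RPKM in WT columns (median 569), a log2 difference of -1.55 ± 0.022. Lmna, which encodes nuclear lamins, measured 1.19 to 2.14 RPKM in KO columns (median 1.54) and 3.19 to 6.27 RPKM in WT columns (median 4.47), a log2 difference of -1.08 ± 0.044. Lgals1, galectin-1, measured 35.4 to 69.6 RPKM in KO columns (median 51.6) and 78.1 to 197 RPKM in WT columns (median 125), a log2 difference of -1.24 ± 0.035. The 3 stearoyl-CoA desaturase genes, which make monounsaturated fatty acids, were all members. Scd2 was the most abundant (5.41 to 14.7 RPKM in KO columns, median 10.5, and 19.9 to 54.7 RPKM in WT columns, median 36.2, log2 difference -1.78 ± 0.039), followed by Scd3 (-1.12 ± 0.048) and Scd1 (-1.24 ± 0.049). They are close paralogs, and how reads shared between them were counted is not given in the sources used here.

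Dusp4, a phosphatase of MAP kinases, measured 8.65 to 14.1 RPKM in KO columns (median 11.1) and 23 to 68.3 RPKM in WT columns (median 40.4), a log2 difference of -1.74 ± 0.037. Klf10, a TGF-β-inducible Krüppel-like factor, measured 2.35 to 4.09 RPKM in KO columns (median 3.35) and 4.66 to 14 RPKM in WT columns (median 8.31), a log2 difference of -1.09 ± 0.042. Neither gene had a KO column within the WT range. Elk3, an ETS factor, measured 2.97 to 5.8 RPKM in KO columns (median 4.42) and 6 to 23.2 RPKM in WT columns (median 14.1), a log2 difference of -1.34 ± 0.038. Egln3, a prolyl hydroxylase that acts on HIF, measured 0.766 to 2.24 RPKM in KO columns (median 1.54) and 3.52 to 14.5 RPKM in WT columns (median 5.65), a log2 difference of -1.52 ± 0.043. Hif1a, its partner in oxygen sensing, had a small decrease (-0.38 ± 0.028). Pdk1 and Pgk1, known HIF targets, were members on the higher side (0.49 and 0.31), below the fold that a call required.

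Of 20 interferon-stimulated genes 16 were examined, and 7 were called lower and none higher by limma, against 3.98% and 1.2% of all genes. At an unadjusted p under 0.05, 11 were lower and 2 higher, and the median log2 difference was -0.45. Leaving out the column KO IL-4 2, an alternative chosen after seeing the data, gave 8 of 16, and leaving out KO mouse 3 gave 3 of 16. Quantile normalization gave 5 of 16. Without the filter on low levels 5 of the 20 were called lower. Irf7, a regulator of interferon genes, measured 0.918 to 19.1 RPKM in KO columns (median 1.59) and 3.68 to 10.9 RPKM in WT columns (median 6.42), and the 19.1 RPKM came from KO IL-4 2. Isg15 (-1.22 ± 0.072), Usp18 (-0.67 ± 0.048) and Stat2 (-0.65 ± 0.11, not called without KO mouse 3, at -0.54) were lower with overlap. The summed level of the list was 344 to 591 RPKM in KO and 465 to 570.3 RPKM in WT, and its highest KO value was 426 RPKM without that column. Ifi27 and Ifi27l2a, induced by interferon and alike in sequence, were members even with the column included. Ifi27 measured 6.55 to 16.8 RPKM in KO columns (median 8) and 27.1 to 42.2 RPKM in WT columns (median 36.6), a log2 difference of -1.97 ± 0.061. Ifi27l2a measured 58.6 to 177 RPKM in KO columns (median 71.5) and 185 to 390.2 RPKM in WT columns (median 323), a log2 difference of -1.93 ± 0.054. In both, KO IL-4 2 held the highest KO value. Bst2, tetherin, was the only one of the 16 listed without overlap (-0.43 ± 0.022). Ubd, a ubiquitin-like protein induced by interferon-γ and TNF, measured 0.0314 to 0.466 RPKM in KO columns (median 0.192) and 0.711 to 7.06 RPKM in WT columns (median 3.42), a log2 difference of -1.73 ± 0.11.

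The Ly6 genes of chromosome 15 lie side by side, and Ly6i, Ly6a and Ly6c1 were all members. Ly6a, the surface protein Sca-1, measured 136 to 255 RPKM in KO columns (median 193) and 341 to 486 RPKM in WT columns (median 419), a log2 difference of -1.09 ± 0.023. Ly6c1 measured 29 to 87.7 RPKM in KO columns (median 45.4) and 101 to 182 RPKM in WT columns (median 119), a log2 difference of -1.48 ± 0.047. Ly6i measured 10.7 to 20.6 RPKM in KO columns (median 15.7) and 29.4 to 43.3 RPKM in WT columns (median 36.9), a log2 difference of -1.14 ± 0.032. Ly6c2 was lower with overlap (-1.23 ± 0.052) and shares sequence with Ly6c1, so their values are uncertain one by one. Among genes of naive cells and homing, 20 of 21 were examined, 3 were called lower and 1 higher (3.98% and 1.2% of all genes were), with a median of -0.048.

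Genes of T cell activation showed no common direction. All 20 listed were examined, with 4 called lower and 1 higher (3.98% and 1.2% of all genes were) and a median log2 difference of -0.19. Il2rb, a subunit of the IL-2 receptor, measured 115 to 135 RPKM in KO columns (median 129) and 174 to 299.7 RPKM in WT columns (median 234), a log2 difference of -0.87 ± 0.03. Nr4a3, an early response factor, measured 3.04 to 5.51 RPKM in KO columns (median 4.5) and 6.84 to 11.5 RPKM in WT columns (median 9.98), a log2 difference of -0.99 ± 0.048. Both genes were without overlap. The cytokine gene Il2 was higher with overlap (48.9 to 94.2 RPKM in KO columns, median 71.4, and 9.75 to 113 RPKM in WT columns, median 52.6, log2 difference 0.69 ± 0.041), a call lost when the 24 columns entered limma separately (adjusted p 0.12) and with the headed mouse as a random effect (adjusted p 0.015, or 0.020 with culture), which left none of the 20 higher. Tnf was lower (-0.61 ± 0.039), a call lost without KO mouse 2 (-0.58) and without the column KO IL-4 2 (-0.56). Without the column KO IL-4 2, or without KO mouse 2, 2 were called lower and 1 higher. Of 12 inhibitory receptor genes 10 were examined and none was called in either direction by limma, with 5 higher and 2 lower at an unadjusted p under 0.05. Pdcd1, which encodes PD-1, had a log2 difference of -0.53 ± 0.03 and Lag3 one of -0.44 ± 0.035, while Tigit (0.22 ± 0.055) and Cd274 (0.15 ± 0.045) lay above 0.

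The largest increase belonged to Wnt10a, a secreted Wnt ligand on mm9 chr1:74838090-74850753. It measured 2.82 to 5.2 RPKM in KO columns (median 4.18) and 0.0765 to 1.11 RPKM in WT columns (median 0.346), a log2 difference of 1.75 ± 0.046 with an adjusted p of 8.4e-09. The lowest KO column was well above the highest WT column. Rcsd1, a regulator of actin capping, measured 22.4 to 29.1 RPKM in KO columns (median 24.9) and 7.68 to 12.3 RPKM in WT columns (median 9.1), a log2 difference of 1.34 ± 0.042. Arc, an early response gene best known from neurons, measured 7.34 to 9.95 RPKM in KO columns (median 8.47) and 1.27 to 7.29 RPKM in WT columns (median 2.71), a log2 difference of 1.33 ± 0.042. For Arc the groups only just parted. Gstt3, a glutathione S-transferase, measured 5.75 to 9.2 RPKM in KO columns (median 7.39) and 0.929 to 4.59 RPKM in WT columns (median 2.69), a log2 difference of 1.28 ± 0.043.

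Tnfsf11, the TNF family ligand RANKL, measured 25.2 to 43.3 RPKM in KO columns (median 34.5) and 7.82 to 22.3 RPKM in WT columns (median 13.9), a log2 difference of 1.26 ± 0.033. Slamf6, a homotypic receptor of the SLAM family, measured 29.4 to 40.9 RPKM in KO columns (median 36.7) and 8.55 to 22.6 RPKM in WT columns (median 16.4), a log2 difference of 1.20 ± 0.027. Crtam, an adhesion receptor of activated T cells, measured 62.3 to 94.1 RPKM in KO columns (median 75.8) and 18.4 to 61.6 RPKM in WT columns (median 34.2), a log2 difference of 1.18 ± 0.026. In none of the 3 did a WT column reach the lowest KO column. Smaller increases were seen for the endolysosomal channel gene Mcoln2 (1.01 ± 0.044), the membrane protein gene Ms4a6c (0.99 ± 0.043), the LIM protein gene Fhl2 (0.97 ± 0.064), the endocytic recycling gene Ehd3 (0.97 ± 0.04) and Gm14295 (0.96 ± 0.063). Ms4a6c and Gm14295 have close relatives in the genome, and their values are uncertain where reads were shared.

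Pim1, a survival kinase induced by STAT5, was higher without overlap (67.1 to 106 RPKM in KO columns, median 80.6, and 31.7 to 55.6 RPKM in WT columns, median 44.2, log2 difference 0.88 ± 0.031), and so was Bcl2l11, which encodes the pro-apoptotic protein Bim (12.7 to 19.9 RPKM in KO columns, median 15.5, and 4.86 to 11.6 RPKM in WT columns, median 9.21, log2 difference 0.84 ± 0.038). On chromosome 6, 3 neighbouring genes of immunity-associated GTPases were members: Gimap7 (0.86 ± 0.065), Gimap5 (0.48 ± 0.024) and Gimap1 (0.31 ± 0.029), of which Gimap7 alone passed the fold for a call.

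**Figure D3:**
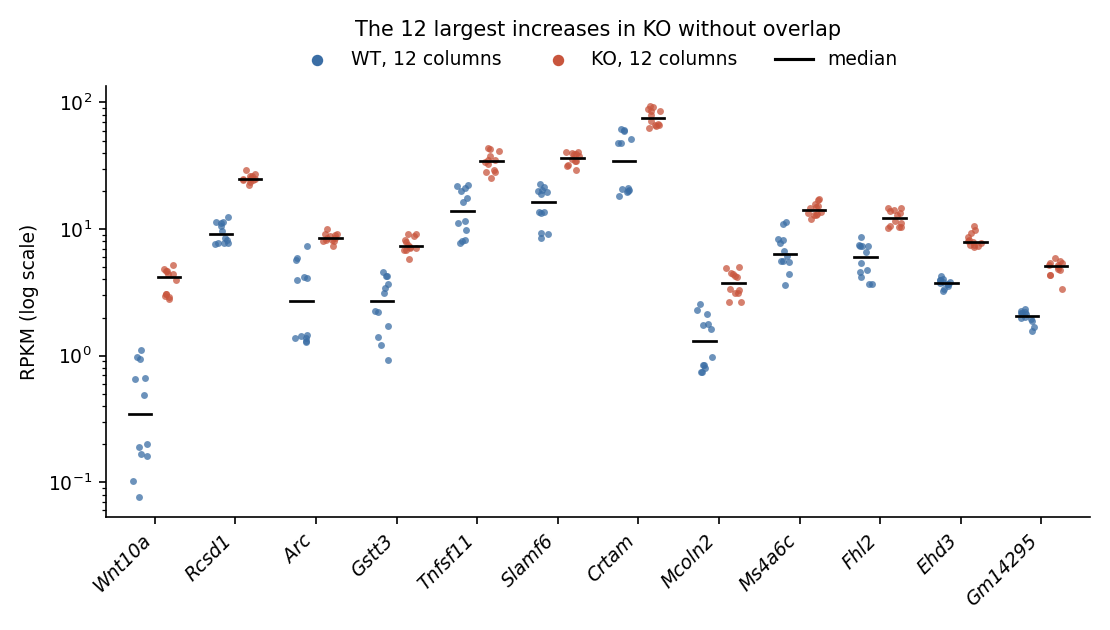
RPKM (log axis) of the 12 members with the largest increases, each point 1 of 12 WT (blue) or 12 KO (red) columns and each black bar the median of its group. All KO points lie above all WT points, by the widest margin for Wnt10a (KO median 4.18, WT median 0.346 RPKM) and by 7.29 against 7.34 RPKM at the nearest for Arc.

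Genes of the cell cycle were a little higher in KO, mostly below the fold that a call required. All 30 genes of G1/S and DNA replication were examined. None was called by limma. In the higher direction 26 had an unadjusted p under 0.05, where 62.5% of all genes had one in either direction. An adjusted p under 0.01 was seen for 24 in the higher direction and none in the lower, against 23.8% and 20% of all genes. The median log2 difference was 0.21. Of the 30, 4 were members, all higher (2.05% of all genes were such): Rfc4, a clamp loader subunit (138 to 158 RPKM in KO columns, median 147, and 94.2 to 135 RPKM in WT columns, median 107, log2 difference 0.42 ± 0.02), Pcna, the sliding clamp (431 to 535 RPKM in KO columns, median 461, and 335 to 431 RPKM in WT columns, median 377, log2 difference 0.32 ± 0.03), the helicase subunit gene Mcm3 (0.25 ± 0.027) and the chromatin assembly gene Chaf1b (0.27 ± 0.023). For Pcna the groups parted by less than 1 RPKM. Tk1, thymidine kinase, had the largest difference of the 30 (0.57 ± 0.035), with overlap and a call only without WT mouse 2 (0.61), and the cyclin gene Ccne1 had one of 0.38 ± 0.034. E2f8, an atypical repressor of the E2F family, measured 7.77 to 9.83 RPKM in KO columns (median 8.79) and 4.62 to 8.99 RPKM in WT columns (median 6.36), a log2 difference of 0.41 ± 0.054, with overlap and no call, and E2f7 had a difference of -0.0046.

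All 25 genes of G2 and mitosis were examined too, with a median log2 difference of 0.40. Of these 24 lay above 0, where 53.6% of all genes did (46.4% lay below), and 21 had an adjusted p under 0.01 in the higher direction. Only 1 was called higher, the checkpoint kinase gene Bub1 (8.14 to 10.8 RPKM in KO columns, median 10.2, and 5.01 to 9.57 RPKM in WT columns, median 6.58, log2 difference 0.59 ± 0.042), and its call was lost without the column KO IL-4 2 and without WT mouse 1, WT mouse 3 or KO mouse 2 (log2 differences of 0.56 to 0.58). Kif20a (0.55 ± 0.045) and Aurkb (0.52 ± 0.037) came next in size, followed by Kif23 (0.51 ± 0.044). Cenpf was the 1 gene below 0 (-0.21 ± 0.054). None of the 25 was free of overlap.

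Of 19 targets of p53, 17 were examined, 2 called lower and 1 higher (3.98% and 1.2% of all genes were), with a median of 0.074. Sesn2, a stress-response gene, was a member on the lower side, by a margin of 8.12 to 8.13 RPKM (-0.64 ± 0.053), and the kinase gene Plk2 was called higher with overlap (1.26 ± 0.041). Trp53inp1 was the other lower call (-0.60 ± 0.072), lost with quantile normalization, with the 24 columns entered separately (adjusted p 0.033) and without WT mouse 1, WT mouse 3, KO mouse 1 or KO mouse 3 (-0.54 to -0.58). The cell cycle inhibitor gene Cdkn1a was not called (-0.45 ± 0.056). Because KO mice were given tamoxifen, an estrogen receptor ligand, genes of that receptor and its targets were listed. Of 10, 6 were examined and 2 were called lower (3.98% of all genes were), Igfbp4 (16.7 to 41.8 RPKM in KO columns, median 24, and 28.5 to 273 RPKM in WT columns, median 108, log2 difference -1.71 ± 0.024) and Rara (-0.67 ± 0.049), both with overlap. For both, the higher WT columns were the same ones as for Tgfbr1. Igfbp4 measured 167 to 273 RPKM in those and 28.5 to 49.2 RPKM in the other WT columns. Rara measured 13.9 to 18.3 RPKM in those, 6.87 to 8.79 RPKM in the other WT columns and 5.42 to 7.99 RPKM in KO columns. A part of tamoxifen in these differences was not tested. Xbp1 (-0.30 ± 0.025) and Nrip1 (0.091 ± 0.047) were not called.

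**Figure D4:**
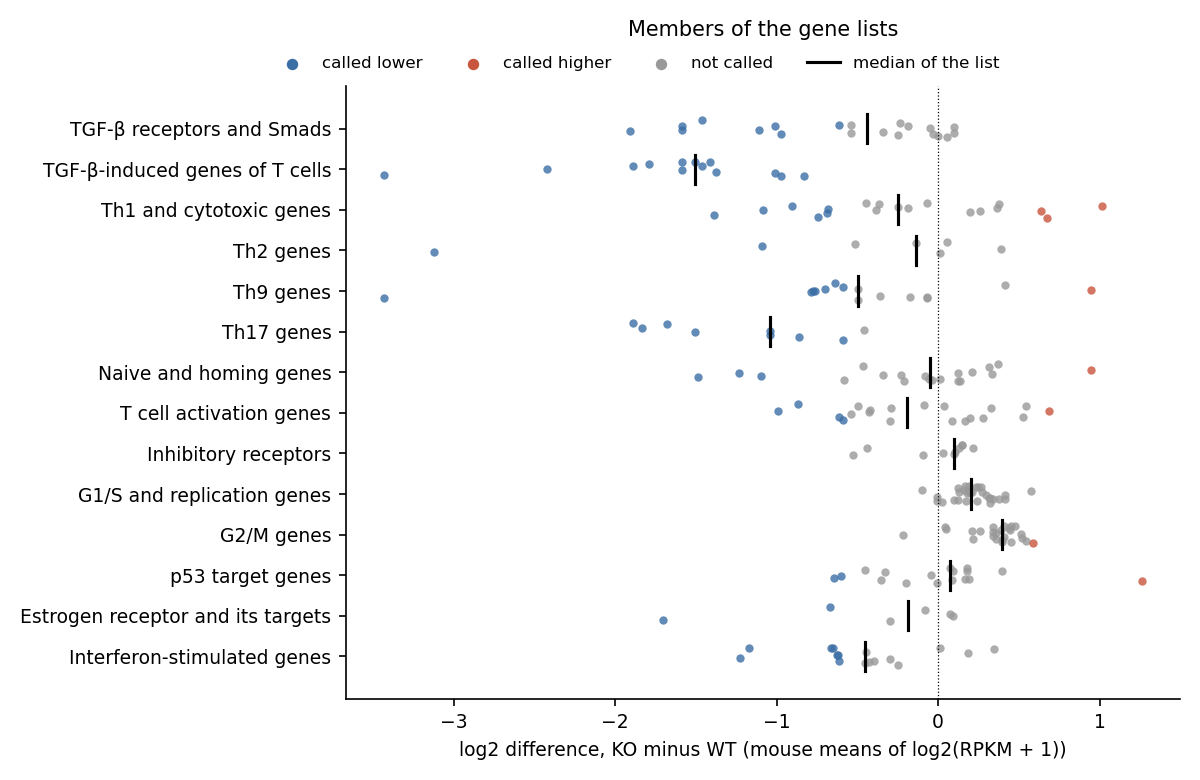
Log2 difference of KO minus WT (log2(RPKM + 1) scale) of the examined genes of each list, each point a gene: blue where called lower, red where called higher, grey where not called, with a black bar at the list median. The TGF-β-induced and Th17 lists lie below 0 throughout (medians -1.51 and -1.04), while the G2/M list lies above 0 for 24 of 25 genes (median 0.40).

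Chromatin accessibility was read from DNase-seq, with 1 library of each genotype for control cells and 1 for cells given both cytokines, so these values have no replicate check and no test. The authors' lists held 44298 DNase I hypersensitive sites (DHSs) for WT control cells and 33880 for WT cells with both cytokines, against 33665 and 27145 for KO cells. A total of 2711 DHSs were in both WT lists and in neither KO list, and 199 were in both KO lists and in neither WT list, which cannot be told apart from the shorter KO lists. Genes with a WT-only DHS within 10 kb of their start made up 15 of 149 lower members (10.1%), 15 of 188 higher members (7.98%) and 587 of all 9049 genes with a position (6.49%). With DHSs of a -log10 q of 5 or more the shares were 7.38%, 7.98% and 6.41%, so the order of lower and higher members turned. The lower members among them included Elk3, the histone demethylase gene Kdm6b, Tox2, Prkch, Ncs1 and Scd3, and the higher members Crtam, Fhl2, Thy1 and Bcl2l11. KO-only DHSs lay within 10 kb of 3 lower members (2.01%) and of none of the 188 higher members, against 0.685% of all genes. A DHS of any list lay near 91.9% of lower members, 97.9% of higher members and 95.7% of all genes.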

How the data were processed

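RNA-seq libraries (Smart-seq2) were given as RPKM per gene. The authors mapped reads to mm9 with Bowtie2, left out redundant reads and those mapped with low quality, and deposited RPKM values of 24 libraries. The gene annotation, its version and the use of strand are not given in the sources used here, so overlapping genes may share reads. MACS2 made the DHS lists on each library alone, and in them the authors deposited fold enrichment (a ratio), -log10 p, -log10 q and a score per DHS, of which positions, summits and -log10 q were used.

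Genes with a mean of 1 RPKM or more over 24 columns were examined on log2(RPKM + 1), which understates the change of low genes. Columns took their genotype from their headings. The 4 columns of each headed mouse were averaged, and the 3 KO and 3 WT means were compared with limma 3.58.1 in R 4.3.3 (empirical Bayes with a trend, two-sided, Benjamini-Hochberg adjustment, called at an adjusted p under 0.01 and a fold over 1.5). The code of the fit was tested on simulated data, which bears on the code alone. Averaging over cultures leaves the spread between them out of the SE. Read depth per library is not held in RPKM, so no counting interval is printed. DHSs were assigned to genes by a summit within 10 kb of the start, and promoter windows and positions came from the mm9 annotation. Tables and figures were made with Python 3.11.15, pandas 2.3.3, numpy 2.4.6 and matplotlib 3.10.9.

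Named were Tgfbr1, the 12 largest decreases and 12 largest increases without overlap, the 4 largest differences in each list, and Il9, Dbp and E2f8, and 2 genes that this rule picks, of the Th17 and B cell lists, are not reported here. Any other named gene was chosen after its values were seen. Members and lists were chosen with earlier results of these data known. WT and KO mice with equal numbers were not treated as pairs, since no label ties them. Their deviations from the group means correlated at 0.071, -0.018 and -0.24 for numbers 1, 2 and 3, but with mouse headings in doubt this check cannot tell whether mice were paired. Nothing shows that columns of 1 genotype came from separate cultures beyond their headings. The p-values of the main fit measure the spread between means of headed mice, which in WT mixed mice, and not the spread between columns.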

Additional observations from a re-analysis of the deposited data

How the results depend on the processing

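The count of 504 genes called (387 lower, 117 higher) went to 321 (241 lower, 80 higher) when a mean of 5 RPKM was required, since 6783 genes were then tested, and to 699 (534 lower, 165 higher) with a pseudocount of 0.1. Without any filter 414 were lower and 120 higher, with 24 separate columns 358 and 113, and with the replicate block 384 and 116, or 500 in all. The block took 1 of the 7 calls from the interferon list. Leaving out 1 headed mouse gave 494 to 528 calls (376 to 415 lower, 113 to 125 higher). Genes without overlap rose in number with fewer columns, from 356 to between 431 and 540 (lower 177 to 223, higher 235 to 324), the most without WT mouse 2, which left 324 higher, and to 204 lower and 208 higher without the column KO IL-4 2, an alternative chosen after seeing the data. Median-ratio scaling gave 186 lower and 140 higher, a share lower of 57.1% against 44.1% as deposited, and quantile normalization 145 and 196. No scaling moved the median of all genes by over 0.1. The share of members near a WT-only DHS rose to 28.2% of lower and 26.1% of higher members at 50 kb, against 23.3% of all genes, and the order of the shares turned with stricter DHSs. Of 106 named genes, 86 stayed on the same side of the test in every alternative, and 6 values reversed sign, all of Cd8b1 and none called: -0.019 with median-ratio scaling, -0.00417 with quantile normalization, between -0.015 and 0.031 without 1 mouse and -0.042 without the column KO IL-4 2. The cause was not tested. Small differences of low genes are limited by unknown read depth, and with 3 mice of each genotype, headings in doubt and tamoxifen given to KO mice alone, the genotype is 1 of several differences between the groups.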

Other observations

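Beyond the listed groups, the higher members included abundant genes of ribosome production and growth with small differences. Ncl, nucleolin, measured 309 to 357 RPKM in KO columns (median 327) and 226 to 303 RPKM in WT columns (median 271), a log2 difference of 0.31 ± 0.024. Nolc1, a nucleolar phosphoprotein, had a difference of 0.36 ± 0.026 and Ddx21, a nucleolar RNA helicase, one of 0.30 ± 0.023. The cyclin-dependent kinase gene Cdk4 measured 526 to 559 RPKM in KO columns (median 536) and 430.0 to 498 RPKM in WT columns (median 466), log2 difference 0.21 ± 0.021. None of these 4 passed the fold of 1.5. They were chosen after their values were seen.

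By chromosome, members were spread over most of the genome. Of all genes examined, 1.61% were lower and 2.05% higher members. The X chromosome held 1 lower and 11 higher members among 292 genes examined (0.342% and 3.77%). Chromosome 14 held none lower and 8 higher among 300 (0% and 2.67%), and chromosome 1 held 5 lower and 21 higher among 513 (0.975% and 4.09%). No difference between chromosomes was tested. For 19 members the annotation used gave no position. The 10 genes that differ by sex gave no call by limma among 5 examined (1 lower and 2 higher at an unadjusted p under 0.05), with a median log2 difference of 0.084 (Eif2s3x 0.19, Xist -0.14, Kdm5c 0.10, Ddx3x 0.084).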
